A study of Mus musculus with 6 samples.

Results

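The 8 long noncoding RNA genes Malat1, Neat1, Gas5, Snhg1, Snhg3, Snhg5, Snhg8 and Snhg12 were matched by symbol to the count tables of melanomas grown from sevoflurane-primed or unprimed cells, and all 8 were among the 53801 genes listed there. RNA had been taken from pieces of tumour after cells of the mouse melanoma line B16-F10 had grown under the skin of adult male wild-type C57BL/6 mice. In the SEVO group (n = 3) the cells had been kept in a chamber flushed with the volatile anaesthetic sevoflurane before they were injected. In the CTRL group (n = 3) the cells had not been primed. The methods describe a freshly thawed stock of cells for each experimental group, so stock and priming cannot be told apart where the groups came from separate stocks. The labels do not say whether the 3 samples of a group came from separate animals, so the p-values cover only the spread between these samples.

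The labels name monocytes as the cell type but the tumour as the source. Of 9 monocyte and macrophage markers, Csf1r had 88 to 257 reads per tumour, with 873 of its 5774 exon bases opposite other exons, and the other 8 had 0 to 23, with Lyz2 and Ly6c2 at 0 to 4, Adgre1 at 0 to 9 and Cd68 at 7 to 17. Of 7 melanocyte markers, the enzyme Dct had 206 to 619 reads, Mitf 23 to 101 and Tyr 17 to 62. They are described here as pieces of whole tumour, the source that the labels give. The reads assigned to genes numbered 723431 to 1348676 per tumour, 2.06% to 4.61% of the uniquely aligned reads, and CTRL tumour 2 had the fewest. The predicted genes Gm10800 and Gm10801 took 1.31% of the counted reads in that tumour and 49.0% in CTRL tumour 1.

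Malat1 and Neat1 are long nuclear RNAs. Malat1 gathers in nuclear speckles, where splicing factors are stored, and is abundant in most mammalian cells. Neat1 is the scaffold of paraspeckles, nuclear bodies that hold RNA-binding proteins. Gas5 and the Snhg genes are hosts of small nucleolar RNAs (snoRNAs), which are cut from their introns and guide chemical modification or processing of ribosomal RNA, while the spliced host RNA is often removed by nonsense-mediated decay.

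The positions of the 8 genes in GENCODE on GRCm38 set what could be counted on them. Malat1 lies on the minus strand of chromosome 19 from 5795690 to 5802672 and is a single block of 6983 exon bases once its transcripts are merged. Neat1 lies on the same strand from 5824708 to 5845478, with 20771 exon bases. Gas5 is on the plus strand of chromosome 1 from 161034422 to 161038539, with 3760 exon bases. Snhg1 is on the plus strand of chromosome 19 from 8723475 to 8726443 and Snhg8 on the minus strand of chromosome 3 from 123507552 to 123508404. Snhg3 is on the minus strand of chromosome 4 from 132348014 to 132353686, and Snhg12 on the plus strand of the same chromosome from 132308623 to 132311024. Snhg5 is on the minus strand of chromosome 9 from 88521050 to 88522929.

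Exons of another annotated gene lay opposite exons of Malat1 and Snhg3 but not of the other 6 genes. The gene opposite Malat1 is Gm37376, a transcript still to be experimentally checked, on the plus strand at chr19:5801941-5802393. All 453 of its exon bases lie opposite Malat1, and they are the reverse complement of bases 280 to 732 of the longest Malat1 transcript. The gene opposite Snhg3 is Gm17300, a noncoding gene at chr4:132351772-132353382, with 705 of 1527 exon bases opposite Snhg3 exons. Zbtb37, a protein-coding gene, starts inside the span of Gas5 on the opposite strand, over 428 bases, but no exon of one covers an exon of the other.

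The 80 bases at chr19:5802314-5802393 are shown first, on both strands, because all reads of the most counted of these pairs depend on how the strand was read. Capitals mark 15 bases that pair with each other.
Malat1, minus strand: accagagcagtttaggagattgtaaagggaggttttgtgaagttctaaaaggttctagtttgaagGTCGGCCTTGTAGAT
Gm37376, plus strand: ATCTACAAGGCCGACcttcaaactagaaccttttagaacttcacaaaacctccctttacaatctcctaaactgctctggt
The same is shown for 80 bases at chr4:132352164-132352243, in the stretch that Snhg3 and Gm17300 share.
Snhg3, minus strand: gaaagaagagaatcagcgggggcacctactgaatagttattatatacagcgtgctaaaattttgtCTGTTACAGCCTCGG
Gm17300, plus strand: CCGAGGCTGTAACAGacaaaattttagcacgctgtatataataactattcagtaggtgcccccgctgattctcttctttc

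**Figure D1:**
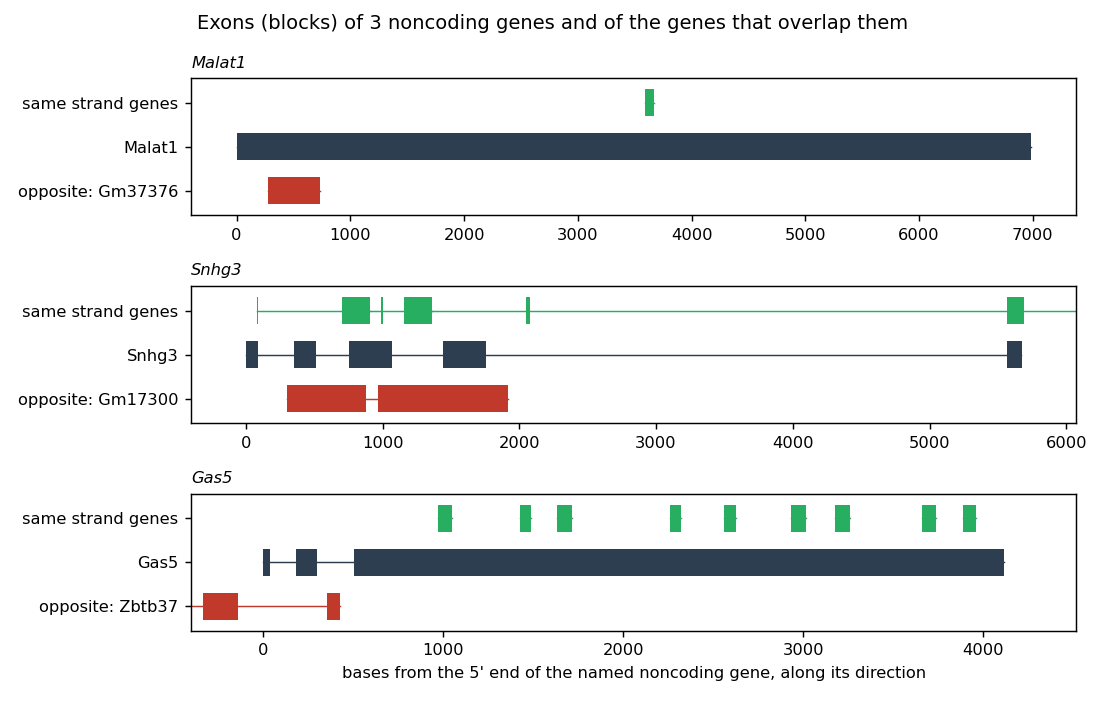
Exons (blocks) of Malat1, Snhg3 and Gas5, of genes that overlap them on the same strand and of genes on the opposite strand, drawn to scale in bases from the 5′ end of each noncoding gene. Gm37376 lies wholly opposite the Malat1 exon block, Gm17300 lies partly opposite Snhg3 exons, and the exons of Zbtb37 and Gas5 do not cover each other.

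Malat1 was the most counted of the 8 genes. It had 513, 432 and 641 reads in CTRL tumours 1 to 3 and 281, 227 and 844 in SEVO tumours 1 to 3. The groups overlapped, since SEVO tumour 3 was the highest of the 6 and the other two SEVO tumours the lowest. Normalised to CPM (reads as a share of the library size, corrected by TMM), the level of Malat1 was 633 ± 97.3 in CTRL and 496 ± 370 in SEVO (SD, n = 3 each). On the log2 scale SEVO differed from CTRL by a fold change of -0.35 (standard error, SE, 0.49, 95% interval -1.42 to 0.71, adjusted p = 0.806 from edgeR, exact permutation p = 0.4). The interval reached from a fall to a rise, so no difference was detectable at this spread. Without SEVO tumour 3 the value was -1.11, and without SEVO tumour 2 it was 0.039.

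Gm37376, opposite Malat1, had far more reads than Malat1 in every tumour. It had 5069, 10252 and 9135 reads in CTRL tumours 1 to 3 and 17092, 8392 and 6840 in SEVO tumours 1 to 3. The counts of Gm37376 were 8.10 to 60.8 times those of Malat1, and per kilobase of exon 125 to 938 times. Malat1 took 1.62% of the reads of the pair in SEVO tumour 1 and 11.0% in SEVO tumour 3. The tumours also ranked differently on the 2 strands, with SEVO tumour 1 the highest for Gm37376 and second lowest for Malat1.

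With exons as annotated here, every read inside Gm37376 also lies on a Malat1 exon. HTSeq, in its usual mode and without regard to strand, sets such a read aside as ambiguous and would have left Gm37376 at 0. That it had reads therefore shows that the counting took account of strand, unless the Malat1 exons of the release used for counting differ here. The strand setting and the library kit are not given in the sources used here. Whether the reads on Gm37376 came from Malat1 RNA read on the other strand was not tested. If the counting took the strand opposite to that of the RNA, the reads listed for Malat1, and for every other gene here, are those of the opposite strand and not its level. Each value below is therefore the count that the table lists under the gene's name, and which strand of RNA it came from was not tested.

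For Gm37376 itself, the level was 9832 ± 3400 CPM (SD, n = 3) in CTRL tumours against 12039 ± 6641 CPM (SD, n = 3) in SEVO tumours, with overlapping groups. The log2 fold change was 0.29 (SE 0.59, 95% interval -0.98 to 1.56, adjusted p = 0.854 from edgeR). When the reads of Malat1 and Gm37376 were summed, a choice made after seeing the data, the log2 fold change of the sum was 0.26 (SE 0.58, adjusted p = 0.869 from edgeR). That of Malat1 alone was -0.35. Malat1 took only 1.62% to 11.0% of the summed reads, so the sum had to follow Gm37376 and is not a recount of Malat1. None of these values stood apart from the spread.

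**Figure D2:**
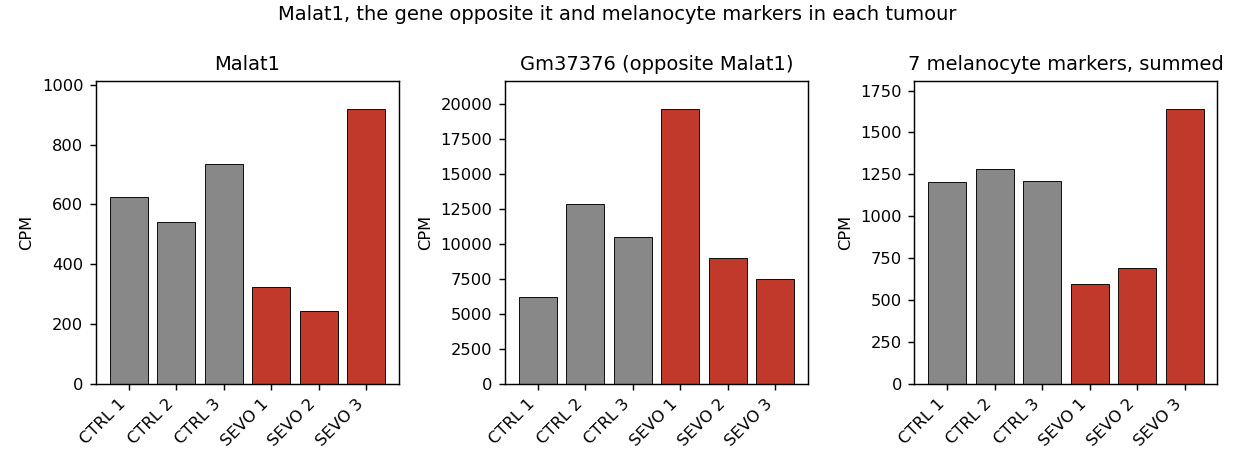
Normalised counts (CPM, bars from 0) of Malat1, of Gm37376 on the opposite strand and of 7 summed melanocyte markers in the 3 CTRL (grey) and 3 SEVO (red) tumours. Malat1 and the melanocyte markers were highest in SEVO tumour 3 and lowest in SEVO tumours 1 and 2, while Gm37376 was highest in SEVO tumour 1.

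Melanocyte markers and Malat1 were both highest in SEVO tumour 3. From SEVO tumour 1 to SEVO tumour 2 the markers rose from 592 to 693 CPM, while Malat1 fell from 323 to 244 CPM. Among the CTRL tumours, CTRL tumour 2 had the highest marker level and the lowest Malat1 level. The summed level of the 7 melanocyte markers, all detected, was 1206 to 1279 CPM in CTRL tumours and 592 to 1642 CPM in SEVO tumours, with the highest value in SEVO tumour 3. Per 100 reads on these markers, Malat1 had 51.7, 42.4 and 60.7 reads in CTRL tumours 1 to 3 and 54.6, 35.1 and 56.0 in SEVO tumours 1 to 3. SEVO tumours 1 and 3, which differed in Malat1 CPM from 323 to 920, lay next to each other on this scale. The part of these markers in the Malat1 values was not tested. In bulk tissue, fewer cells of a type and less RNA per cell cannot be told apart.

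Neat1 had fewer reads over a longer transcript. It had 103, 47 and 70 reads in CTRL tumours 1 to 3 and 31, 25 and 86 in SEVO tumours 1 to 3. As for Malat1, SEVO tumours 1 and 2 were the lowest, and SEVO tumour 3 lay above 2 of the CTRL tumours. In CPM, Neat1 was 88.1 ± 33.7 in CTRL and 52.1 ± 36.4 in SEVO (SD, n = 3 each). The log2 fold change was -0.76 (SE 0.46, 95% interval -1.76 to 0.24, adjusted p = 0.741 from edgeR, exact permutation p = 0.3). Without SEVO tumour 3 it was -1.44, and without SEVO tumour 2 it was -0.35. No annotated gene lies opposite Neat1, so reads placed on that strand, if any, could not enter the table.

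Compared per kilobase of exon, Malat1 had 32.5 to 121 reads and Neat1 1.20 to 4.96 reads per tumour. These were set against the density on 1368 olfactory and vomeronasal receptor genes, sensory receptors taken here as a background. Whether any of them was expressed in these tumours was not tested. Their density was 0.0790 reads per kilobase in CTRL tumour 2 and 1.30 in CTRL tumour 1. Malat1 stood 56.6 to 784 times above these receptors, with a median of 184 over the tumours. Neat1 stood 3.82 to 28.7 times above them, with a median of 6.80. In both genes the lowest ratio was in CTRL tumour 1 and the highest in CTRL tumour 2, the tumours with the highest and lowest receptor density.

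Gas5, a growth arrest-specific host of box C/D snoRNAs, had 10, 15 and 11 reads in CTRL tumours 1 to 3 and 7, 6 and 14 in SEVO tumours 1 to 3. SEVO tumour 3 again lay within the CTRL range and the other two SEVO tumours below it. Gas5 was 14.5 ± 3.72 CPM in CTRL and 9.92 ± 4.70 CPM in SEVO (SD, n = 3 each), and stood 2.05 to 50.5 times above the receptor genes per kilobase. It did not pass the filter on low counts. In the fit with no filter its log2 fold change was -0.15 (SE 0.65, adjusted p = 0.955 from edgeR), on a scale where the median of the 7561 filtered genes lay at 0.44. When Gas5 and the 5 Snhg genes were added to the filtered genes, a choice made after seeing the data, it was -0.54 (SE 0.61, 95% interval -1.86 to 0.77, adjusted p = 0.789 from edgeR).

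The 5 Snhg genes had 0 to 9 listed reads per tumour. With the strand of the counts not known, these low counts do not show that the host RNAs themselves were scarce. Snhg1, host of 8 snoRNA entries, had 9, 2 and 2 reads in CTRL and 0, 2 and 6 in SEVO tumours. Snhg8, host of Snora24, had 3, 1 and 3 reads against 5, 1 and 1. Both sums of Snhg8 were 7 reads, and the groups overlapped for both genes. Snhg3 had 2, 0 and 2 reads in CTRL and 0, 0 and 2 in SEVO tumours. Snhg12 had 1, 0 and 1 reads in CTRL and 3, 0 and 2 in SEVO tumours. At 3 reads or fewer in every tumour, no fold change is given for Snhg3, Snhg5 and Snhg12.

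Snhg5, host of Snord50a and Snord50b, was the only one of the 8 genes whose groups did not overlap. It had 3, 1 and 2 reads in CTRL tumours 1 to 3 and 0 in each SEVO tumour, a sum of 6 reads (exact Poisson 95% interval 2.20 to 13.1) against 0 (0 to 3.69). These intervals overlap and cover counting error only. The exact permutation test gave p = 0.1, the smallest that 3 tumours against 3 allow. Among the 7561 tested genes, 8.56% had groups that did not overlap in CPM.

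**Figure D3:**
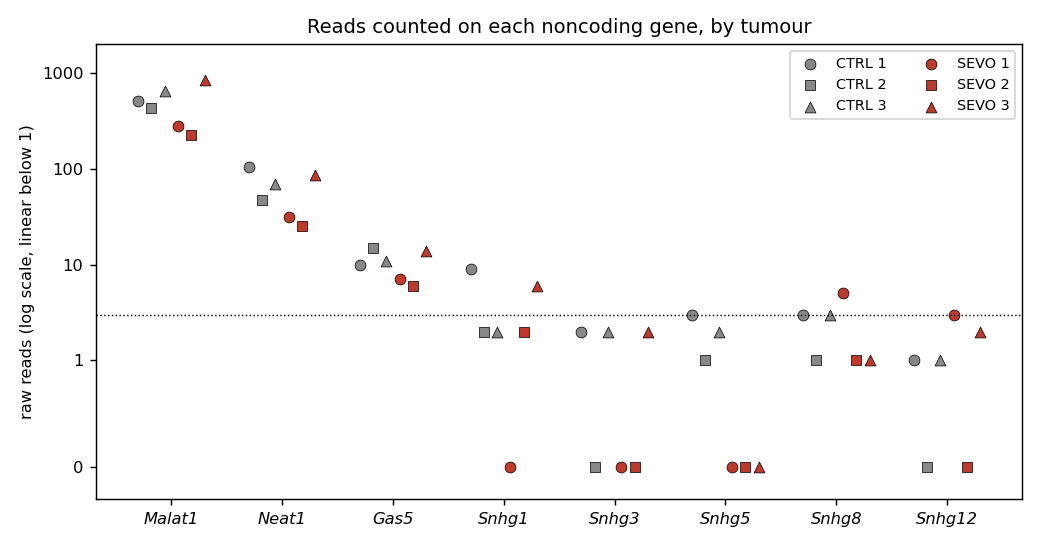
Raw reads of the 8 noncoding genes in each of the 3 CTRL (grey) and 3 SEVO (red) tumours, on a log axis that is linear below 1; the dotted line marks 3 reads. Malat1 lies between 227 and 844 reads, Neat1 between 25 and 103, Gas5 between 6 and 15, and the Snhg genes between 0 and 9.

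Per kilobase, the Snhg genes did not stand clear of the receptor background in every tumour. Snhg8 was 2.71 to 31.3 times above it. Each of the other 4 had at least 1 tumour without a read, and Snhg12 was at 0.32 times the receptor density in CTRL tumour 1. In order of median ratio, Malat1 was followed by Gas5 (8.39), Neat1 (6.80) and Snhg8 (5.68), then by Snhg1 (2.74), Snhg3 (0.78), Snhg5 (0.67) and Snhg12 (0.51). The ranges of all but Malat1 overlapped, but the genes of a tumour share its receptor density, so overlapping ranges do not settle the order. Compared within each tumour, Neat1 had more reads per kilobase than Snhg1, Snhg3, Snhg5 and Snhg12 in all 6. Gas5 had more than Snhg3, Snhg5 and Snhg12 in all 6, on few reads. The order of Gas5, Neat1 and Snhg8 changed between tumours and is not resolved.

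Snhg3, like Malat1, had far fewer reads than the gene opposite it, but the exons of Gm17300 reach beyond those of Snhg3. The whole of Snora73b and part of Snora73a, snoRNAs on the strand of Snhg3, also lie opposite Gm17300 exons. On which of these bases the reads of Gm17300 fell was not tested. Gm17300 had 1900, 2736 and 1944 reads in CTRL tumours 1 to 3 and 2052, 2036 and 1785 in SEVO tumours 1 to 3, where Snhg3 had 0 to 2. The level of Gm17300 was 2656 ± 673 CPM in CTRL and 2164 ± 207 CPM in SEVO (SD, n = 3 each). Its groups overlapped, with CTRL tumour 2 the highest, and its log2 fold change was -0.30 (SE 0.44, 95% interval -1.24 to 0.65, adjusted p = 0.816 from edgeR). On the strand of Snhg3, Rcc1, which shares 135 exon bases with it, had 0 to 4 reads per tumour. Zbtb37, head to head with Gas5, had 57, 14 and 21 reads in CTRL and 16, 10 and 25 in SEVO tumours, and its groups overlapped. Its exon bases number 18814 against 3760 for Gas5, so the raw reads of the 2 genes do not compare their levels.

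**Figure D4:**
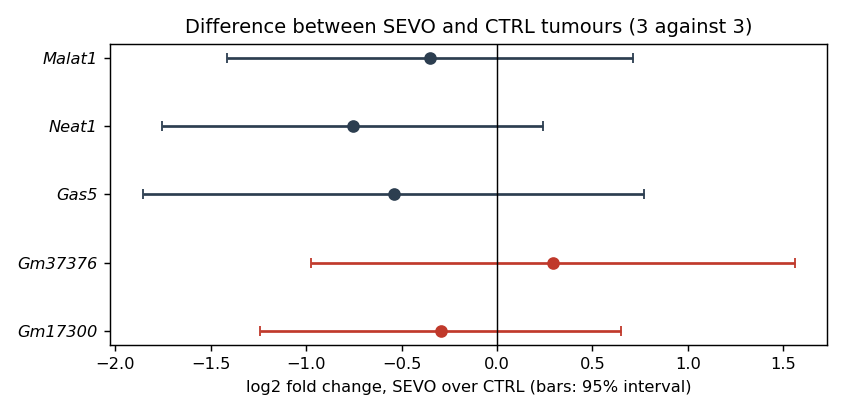
Log2 fold change of SEVO over CTRL tumours with its 95% interval for Malat1, Neat1 and Gas5 (dark) and for Gm37376 and Gm17300 (red), the genes opposite Malat1 and Snhg3; Gas5 is from the fit in which it was added to the filtered genes. Every interval includes 0.

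The snoRNAs inside the hosts were almost absent from the counts. The annotation holds 28 snoRNA entries within the 6 host genes, of which 10 lie in Gas5, 8 in Snhg1, 5 in Snhg12, 2 each in Snhg3 and Snhg5 and 1 in Snhg8. Of these, 26 lie wholly under exons of host transcripts on the same strand, many of them transcripts that retain introns, and all 26 had 0 reads in all 6 tumours. HTSeq sets aside reads that fall on exons of 2 genes of the same strand. The 4 small RNA entries inside Malat1 and Neat1 had 0 reads as well. Across the annotation, 157 snoRNA entries lay wholly under exons of the same strand and 0 of them had a read, while 545 of 1293 (42.2%) with no such exon had at least 1. A count of 0 for these snoRNAs therefore says nothing of their abundance.

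The exception was Snora73b in Snhg3, the only one of the 28 entries that no host exon covers. It had 19, 7 and 5 reads in CTRL tumours 1 to 3 and 1, 4 and 16 in SEVO tumours 1 to 3, more than its host in all 6. SEVO tumour 3 was again high and SEVO tumours 1 and 2 low, and the groups overlapped (exact permutation p = 0.4). Its neighbour Snora73a, with 159 of 205 bases under Snhg3 exons, had 0 reads. The 2 sequences, box H/ACA snoRNAs also known as U17, are shown because they are near-identical, at 198 of 205 positions, so that the reads of either one are uncertain. Capitals mark the ACA box, 3 bases from the 3′ end.
Snora73b at chr4:132352322-132352526, minus strand: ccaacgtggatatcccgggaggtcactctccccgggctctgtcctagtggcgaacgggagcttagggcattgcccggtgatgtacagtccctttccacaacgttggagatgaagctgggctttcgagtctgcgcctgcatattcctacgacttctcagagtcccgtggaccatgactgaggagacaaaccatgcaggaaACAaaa
Snora73a at chr4:132352775-132352979, minus strand: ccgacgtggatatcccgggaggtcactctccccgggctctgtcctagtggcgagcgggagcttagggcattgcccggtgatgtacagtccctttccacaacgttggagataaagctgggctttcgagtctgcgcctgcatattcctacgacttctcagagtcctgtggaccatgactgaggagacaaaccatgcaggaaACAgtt

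Across the whole table, edgeR called 0 of 7561 tested genes (0%) at an adjusted p under 0.05, while 330 (4.36%) had an unadjusted p under 0.05. Malat1 and Neat1 were the 2 of the 8 noncoding genes that passed its filter on low counts, and neither had an unadjusted p under 0.05. Among the 42423 genes with at least 1 read, 0 were called (0%), none of the 8 was, and the lowest unadjusted p of the 8 in edgeR was 0.0622, for Snhg5. DESeq2 also called 0 genes, with 265 of 42422 at an unadjusted p under 0.05. The biological coefficients of variation of Malat1 and Neat1 in edgeR were 0.405 and 0.385, at the 55.3 and 49.2 percentiles of the tested genes. They take both groups together, and edgeR draws them towards the values of other genes. They therefore do not show whether the spread of either gene was ordinary. The SD of Malat1 itself was 97.3 CPM in CTRL and 370 CPM in SEVO.

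The genes that behaved most like these RNAs over the 6 tumours were named by the smallest root mean square difference of centred log2 CPM. For Malat1 they were Got1 (0.07), a transaminase, Syt4 (0.15), a synaptotagmin, and Ewsr1 (0.16), an RNA-binding protein. For Neat1 they were Ankrd28 (0.10), Usp47 (0.10), a deubiquitinase, and Gtf3c1 (0.10), a subunit of transcription factor TFIIIC. For Gas5 they were Gm24106 (0.11), annotated as a miRNA, Npm1 (0.11), a nucleolar chaperone, and Pdcl3 (0.16). The median difference of all tested genes was 0.81, 0.86 and 0.66 from Malat1, Neat1 and Gas5. The named genes were picked as the nearest of 7561 over only 6 tumours, so small differences were bound to be found. The median is therefore no test of their likeness, and a shared regulation was not tested. Got1, with 6 to 28 reads, and Ewsr1, with 12 to 39, were highest in SEVO tumour 3 and lowest in SEVO tumour 2, as Malat1 was.

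Genes that act with these RNAs, other snoRNA hosts and other long noncoding RNAs were described from 8 lists. Exon bases opposite other exons are given for some of these genes only, and genes named without such a value may have them too. In edgeR, 0 genes of any list passed the adjusted threshold in either direction. Among other noncoding snoRNA hosts, 12 of 15 were matched and 1 was tested. That was Snhg14, with 424 to 1009 reads and a log2 fold change of 0.35 (SE 0.43). Its exon bases number 26093, of which 1803 lie opposite other exons. Snhg11 had 1 to 24 reads and Snhg17 1 to 18, both with the most in CTRL tumour 1. Of 17 protein-coding hosts, 9 were tested, 1 with a log2 fold change above 0 and 8 below it, and the median was -0.32 where that of all tested genes was -0.02. The initiation factor Eif4a2 had a value of 0.36 (SE 0.45), the elongation factor Eef2 -0.23 (SE 0.48) and nucleolin, Ncl, -0.82 (SE 0.46). Of the 5338 exon bases of Eif4a2, 194 lie opposite other exons.

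Of 16 snoRNP proteins and assembly factors, 7 were tested, 3 above 0 and 4 below it, with a median of -0.78. The ATPase Ruvbl2, with 123 to 301 reads, had a log2 fold change of 0.55 (SE 0.34). Its groups did not overlap in CPM, as in 8.56% of all tested genes, and 448 of its 2902 exon bases lie opposite other exons. Nhp2 of the box H/ACA particle stood at 0.35 (SE 0.50) and Nop58 of the box C/D particle at -0.89 (SE 0.45). Of 12 paraspeckle proteins, 9 were tested and all 9 had a value below 0, with a median of -0.50. Matr3 stood at -0.63 (SE 0.43), Ewsr1 at -0.49 (SE 0.51) and Sfpq at -0.30 (SE 0.49). Of 14 speckle proteins, 11 were tested and all 11 were below 0, with a median of -0.48. Below 0 were also 3863 of all 7561 tested genes, and no list was tested as a set. Son had -0.04 (SE 0.33), Srrm2 -0.63 (SE 0.44) and Sf3b1 -1.11 (SE 0.53). Single genes below an unadjusted p of 0.05, chosen after their values were seen, were Cpsf6 of the paraspeckle list at -1.56 (SE 0.56) and Srsf5 of the speckle list at -1.38 (SE 0.58).

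Of 12 genes of RNase P, which cuts the 3′ end of Malat1, and RNase Z, which trims the small RNA released there, only Pop5 was tested (log2 fold change 0.25, standard error 0.37). Rpp38 had 5 to 13 reads and Elac2 0 to 16. Of 14 factors of nonsense-mediated decay, 6 were tested, 1 above 0 and 5 below it, with a median of -0.59. Smg1 stood at -1.18 (SE 0.56) and the helicase Upf1 at -0.25 (SE 0.45). Of 9 other long noncoding RNAs, 8 were matched and 4 tested, all with a value below 0 and a median of -0.98. Kcnq1ot1 had -0.05 (SE 0.40), Tug1 -0.53 (SE 0.32) and Meg3 -1.50 (SE 0.70). Opposite other exons lie 1119 of the 93092 exon bases of Kcnq1ot1 and 1228 of the 18089 of Meg3. The groups of Tug1 did not overlap in CPM, as in 8.56% of all tested genes, and 483 of its 9734 exon bases lie opposite other exons. The melanocyte markers were below 0 in 7 of 7, with a median of -0.38, and the part of them in these lists was not tested.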

How the data were processed

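RNA-seq libraries of 6 tumours were analysed, 3 CTRL and 3 SEVO, grouped by the sample titles. According to the methods and the submitters' processing notes, the authors removed ribosomal RNA with SortMeRNA, trimmed reads with Trimmomatic 0.36, aligned them with STAR 2.6.0c to GRCm38.p6 with GENCODE release M17, kept uniquely mapped reads, sorted them with SAMtools 1.8.3 and deposited raw counts per gene from HTSeq 0.9.1. HTSeq's tallies of uncounted reads were left out of library sizes. Positions, strands, exons and transcript sequences came from GENCODE release M21 on the same build, to which 53706 of 53801 identifiers matched without version. The versions of Malat1, Neat1 and Snhg12 differ, so their exons may have changed between releases.

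SEVO was compared with CTRL across all genes with edgeR 4.0.16 in R 4.3.3 (TMM, filterByExpr, quasi-likelihood test, Benjamini-Hochberg adjustment over all tested genes). Standard errors came from the F statistic. Genes removed by the filter were taken from the fit of all genes with at least 1 read. DESeq2 1.42.0, named in the methods, was an alternative. Exact permutation tests were two-sided, of log2 CPM (prior count 2), over the 20 ways to choose 3 of 6 tumours. Scripts were tested on simulated data. The counts of the libraries of a group were not copies of each other (chi-squared per gene 4.35 to 51.6). This does not show whether they came from separate tumours or animals.

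The genes named are the 8 listed, genes overlapping them, the 3 most counted of each list and the 3 nearest in pattern to Malat1, Neat1 and Gas5. A gene that this rule names is not reported here. These genes, lists and tests were chosen with earlier results of these data known. Other scalings, filters, a replicate block and leaving out each tumour were tried as alternatives. Depth limits the low genes, and intervals of counts cover counting error only.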

Additional observations from a re-analysis of the deposited data

How the results depend on the processing

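None of the 8 noncoding genes had an adjusted p under 0.05 in edgeR, and this count was 0 in all 14 alternatives, DESeq2 and the replicate block included, and in the fit with the low-count genes added. The number of all genes called was 0, and became 1 with the replicate block and 0 to 31 with a tumour left out, the highest without CTRL tumour 2. The number with an unadjusted p under 0.05 was 330 of 7561 tested genes, and became 205 with library size only. With no filter on low counts it was 1021 of 42423 genes, more genes but a smaller share. Leaving out a tumour can also change which genes pass the filter. The number was then 95 to 2550, the lowest without CTRL tumour 1 and the highest without CTRL tumour 2. It was 99 without SEVO tumour 1, 104 without SEVO tumour 2, 170 without CTRL tumour 3 and 1117 without SEVO tumour 3. Same-numbered tumours had correlations of -0.40, 0.32 and 0.08, so the numbers were not taken as a pairing, and the block left the log2 fold change of Malat1 at -0.60 and of Neat1 at -0.88.

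Malat1 changed sign to 0.022 with no filter on low counts, and Gm17300 to 0.12. The summed reads of Malat1 and Gm37376, most of them those of Gm37376, stood at 0.26. No filter moved the median of the 7561 filtered genes to 0.44, library size only to 0.22 and uniquely aligned reads as library size to -0.18, from -0.02. With a tumour left out, Malat1 ranged from -1.11 (without SEVO tumour 3) to 0.039 (without SEVO tumour 2), Neat1 from -1.44 to -0.35 (without the same 2 tumours), Gm37376 from -0.21 (without SEVO tumour 1) to 0.68 and Gm17300 from -0.39 to 0.079 (without CTRL tumour 2). Gas5, from the fit with no filter, where the median lay at 0.44 with all 6 tumours, was -0.15 and ranged from -0.59 to 0.38 (without CTRL tumours 1 and 2), with 0.029 without SEVO tumour 2, while it was -0.54 when added to the filtered genes. Neat1 was below 0 in all 15 alternatives, with adjusted p from 0.193 to 1.00. At 0 to 9 reads per tumour, differences in the Snhg genes were not detectable. With at least 10 reads in every tumour Gas5 was not tested. The cause of these changes was not tested.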

Other observations

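Cell types other than melanocytes were sparsely counted, and no marker of them had an adjusted p under 0.05 in edgeR. Of the 9 monocyte and macrophage markers, 2 were tested, and their summed level was 197 to 278 CPM over the CTRL tumours and 227 to 319 CPM in SEVO tumours. Most of it was Csf1r, the receptor of macrophage growth factor, with 88 to 257 reads, and 873 of its 5774 exon bases lie opposite other exons. The 6 T and NK cell markers summed to 8.78 to 71.6 CPM over the CTRL tumours and 24.2 to 33.8 CPM in SEVO tumours. The 4 endothelial markers summed to 11.3 to 102 CPM over the CTRL tumours and 8.58 to 43.6 CPM in SEVO tumours, and the 4 fibroblast markers to 15.1 to 130 CPM and 8.58 to 46.9 CPM. The 5 erythroid markers stood at 149 to 262 CPM over the CTRL tumours and 193 to 220 CPM in SEVO tumours. Most counted among them was Alas2, with 84 to 164 reads, and 372 of its 2403 exon bases lie opposite other exons. The globin gene Hbb-bs had 16 to 82 reads. Keratinocyte markers reached at most 30.4 CPM over the CTRL tumours and 6.44 CPM in SEVO tumours, and skeletal muscle markers 34.0 and 14.2 CPM. In every one of these lists the ranges of the groups overlapped.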
